A study of Mus musculus with 2 samples.

Results

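Chemokines and their receptors bring dendritic cells and T cells together. The genes described here are 8 of the 31253 genes listed: Ccr7, Ccl22, Ccl17, Ccr4, Xcl1, Xcr1, Cxcl16 and Cxcr6. They were chosen by name, as ligands and receptors by which dendritic cells meet T cells or NK cells, and all 8 had unique molecular identifiers (UMIs) in both libraries. The data are single-cell RNA-seq of CD45+ cells sorted from tumors of B16-F10, a melanoma line of C57BL/6 mice, on day 10 after injection under the skin. One library came from Irg1+/+ mice and the other from mice labelled Irg1-/-, in which every cell of the body is meant to lack Irg1. Each was made from the pooled tumors of 3 female mice, given no drug and with no age in the labels.

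With 1 library per genotype no test was possible, and pool of mice, preparation and genotype cannot be told apart. Values are printed for both libraries. The 95% intervals in parentheses are Poisson for a sum of UMIs, Clopper-Pearson for a share of cells before thinning and conditional binomial for a ratio. These intervals cover counting error only, and they treat each UMI as independent although UMIs of 1 cell share that cell. Kept cells numbered 6284 of 6408 in the Irg1+/+ library and 5794 of 5896 in the library labelled Irg1-/-, with medians of 4528 and 4594.5 UMIs. They held 42105693 and 35307041 UMIs in all, and 36 cell barcodes occurred in both libraries.

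The targeted gene was read first. Irg1, listed as Acod1, encodes the enzyme that makes itaconate from cis-aconitate. Irg1+/+ cells held 3696 Acod1 UMIs and cells labelled Irg1-/- held 3805. Scaled to 1000000 UMIs (CPM), this was 87.8 and 108 CPM. Acod1 stood at 1883 and 1355 CPM in neutrophil-like cells. The Acod1 level thus did not bear out the label. The counts are per gene and do not show which exons were read, so what the mice carried is not shown. Every direction below rests on that label.

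Ccr7 is the receptor by which dendritic cells and naive T cells follow Ccl19 and Ccl21 into lymphatic vessels and lymph nodes. Ccl22 and Ccl17 are made by dendritic cells and attract T cells that carry Ccr4, regulatory T cells among them. Xcl1 is released by NK cells and CD8 T cells, and its receptor Xcr1 marks type 1 conventional dendritic cells (cDC1), which present antigen to CD8 T cells. Cxcl16 exists as a membrane-bound and a shed ligand for Cxcr6, a receptor of T cells that stay in tissue.

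Cells were assigned to classes by markers that included none of the 8 genes. Mature dendritic-like cells numbered 407 and 330 in the Irg1+/+ library and the library labelled Irg1-/-, in this order, as do all pairs of values below. There were 359 and 252 cDC1-like, 278 and 432 cDC2-like, 1311 and 732 T-like, 419 and 744 NK-like and 915 and 801 macrophage-like cells. A further 1438 and 1151 cells passed no gate, and 14.5% of all cells lay near a threshold of a gate. The label of mature dendritic-like cells was checked with 20 maturation genes that the gate did not use. Of these, 19 were higher in this class than in the cDC1-like, cDC2-like and macrophage-like classes in both libraries, the exception being Icosl. The gate's own markers summed to 7567 and 7009.7 CPM in the class, led by Fscn1, which encodes an actin-bundling protein, at 5389 and 4893 CPM. Fewer cells of a class and less RNA per cell cannot be told apart in a sum over the whole library, and levels are therefore given within classes.

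**Figure D1:**
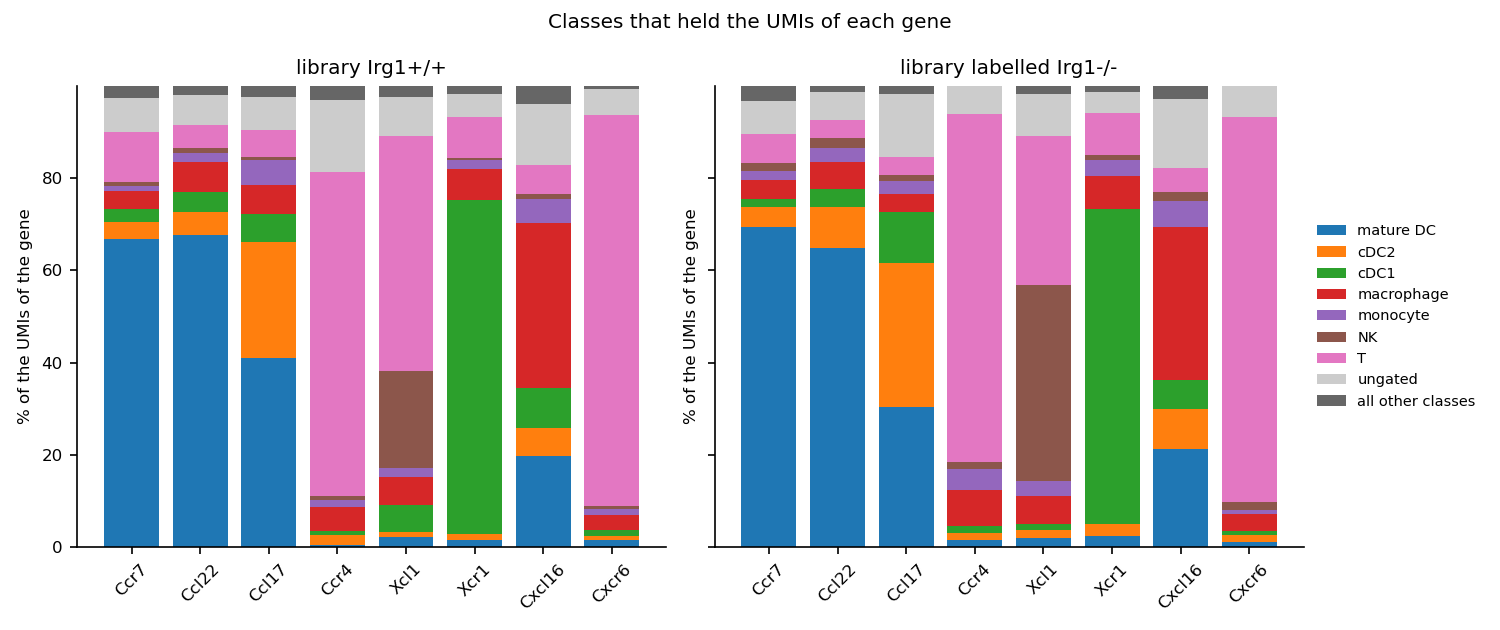
Stacked bars give the percent of each gene's UMIs (vertical axis) that each class of cells held, for the 8 genes (horizontal axis), in the Irg1+/+ library (left) and the library labelled Irg1-/- (right). Mature dendritic-like cells held 66.8% and 69.4% of Ccr7 UMIs, T-like cells 84.9% and 83.4% of Cxcr6 UMIs, and cDC1-like cells 72.5% and 68.3% of Xcr1 UMIs.

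Mature dendritic-like cells were the main source of Ccr7, with 66.8% and 69.4% of its UMIs. The level was 2101 CPM (2045 to 2158) and 2328 CPM (2265 to 2392). A Ccr7 UMI was found in 90.9% (87.7 to 93.5) and 93.0% (89.7 to 95.5) of these cells, at median depths of 5266 and 5826.5 UMIs per cell. NK-like cells served as the measure of free RNA for this gene. They had 38.9 and 45.8 CPM, and a UMI in 11.9% (8.99 to 15.4) and 10.6% (8.50 to 13.1) of cells at median depths of 2935 and 2677.5 UMIs. With each cell thinned to 2000 UMIs, the shares were 94.0% and 93.9% of mature dendritic-like cells, with 72 and 36 shallower cells left out, and 5.68% and 6.54% of NK-like cells, with 67 and 163 left out. The receptor was thus read in most cells of the class in both libraries.

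The log2 ratio of the library labelled Irg1-/- over the Irg1+/+ library was 0.15 (0.09 to 0.20) for Ccr7 in mature dendritic-like cells. B-like cells came next in both libraries, at 405 CPM (327 to 497) and 486 CPM (405 to 579). Their intervals overlapped neither those of the class above nor those of the class below. In cDC2-like cells Ccr7 stood at 139 and 98.0 CPM, a log2 ratio of -0.50 (-0.73 to -0.27), so that the direction was opposite to that in mature dendritic-like cells. The 5 cDC2-like cells with most Ccr7 held 36.6% and 25.7% of its UMIs there. The markers of the mature dendritic gate, summed, stood at 278 and 202 CPM in cDC2-like cells, led by Fscn1 at 161 and 105 CPM, and their part in the Ccr7 difference was not tested.

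Among T-like cells Ccr7 was lower, and NK-like cells, its measure of free RNA, had 38.9 and 45.8 CPM. The part of free RNA in the T-like levels was not tested. CD8 T-like cells that were not cycling had 125 CPM (108 to 144) and 159 CPM (129.9 to 193). Regulatory T-like cells had 64.3 and 77.9 CPM, and CD4 T-like cells without Foxp3 had 62.8 and 73.2 CPM. Cycling CD8 T-like cells had 90.8 and 87.3 CPM. The ratios of these 4 subsets had intervals that included 0. T-like cells placed in no named subset had 92.9 and 57.5 CPM, a log2 ratio of -0.69 (-1.04 to -0.36). The lymphoid ligands of Ccr7 were close to absent from the suspension. Ccl19 had 0 UMIs in the Irg1+/+ library, which, taken as at most 3 UMIs, allows up to 0.0712 CPM, and 1 UMI in the library labelled Irg1-/-. Ccl21a and Ackr4, a scavenger of these ligands, had 0 UMIs in both. Stromal and endothelial cells, which are known to make Ccl19 and Ccl21, lack CD45.

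**Figure D2:**
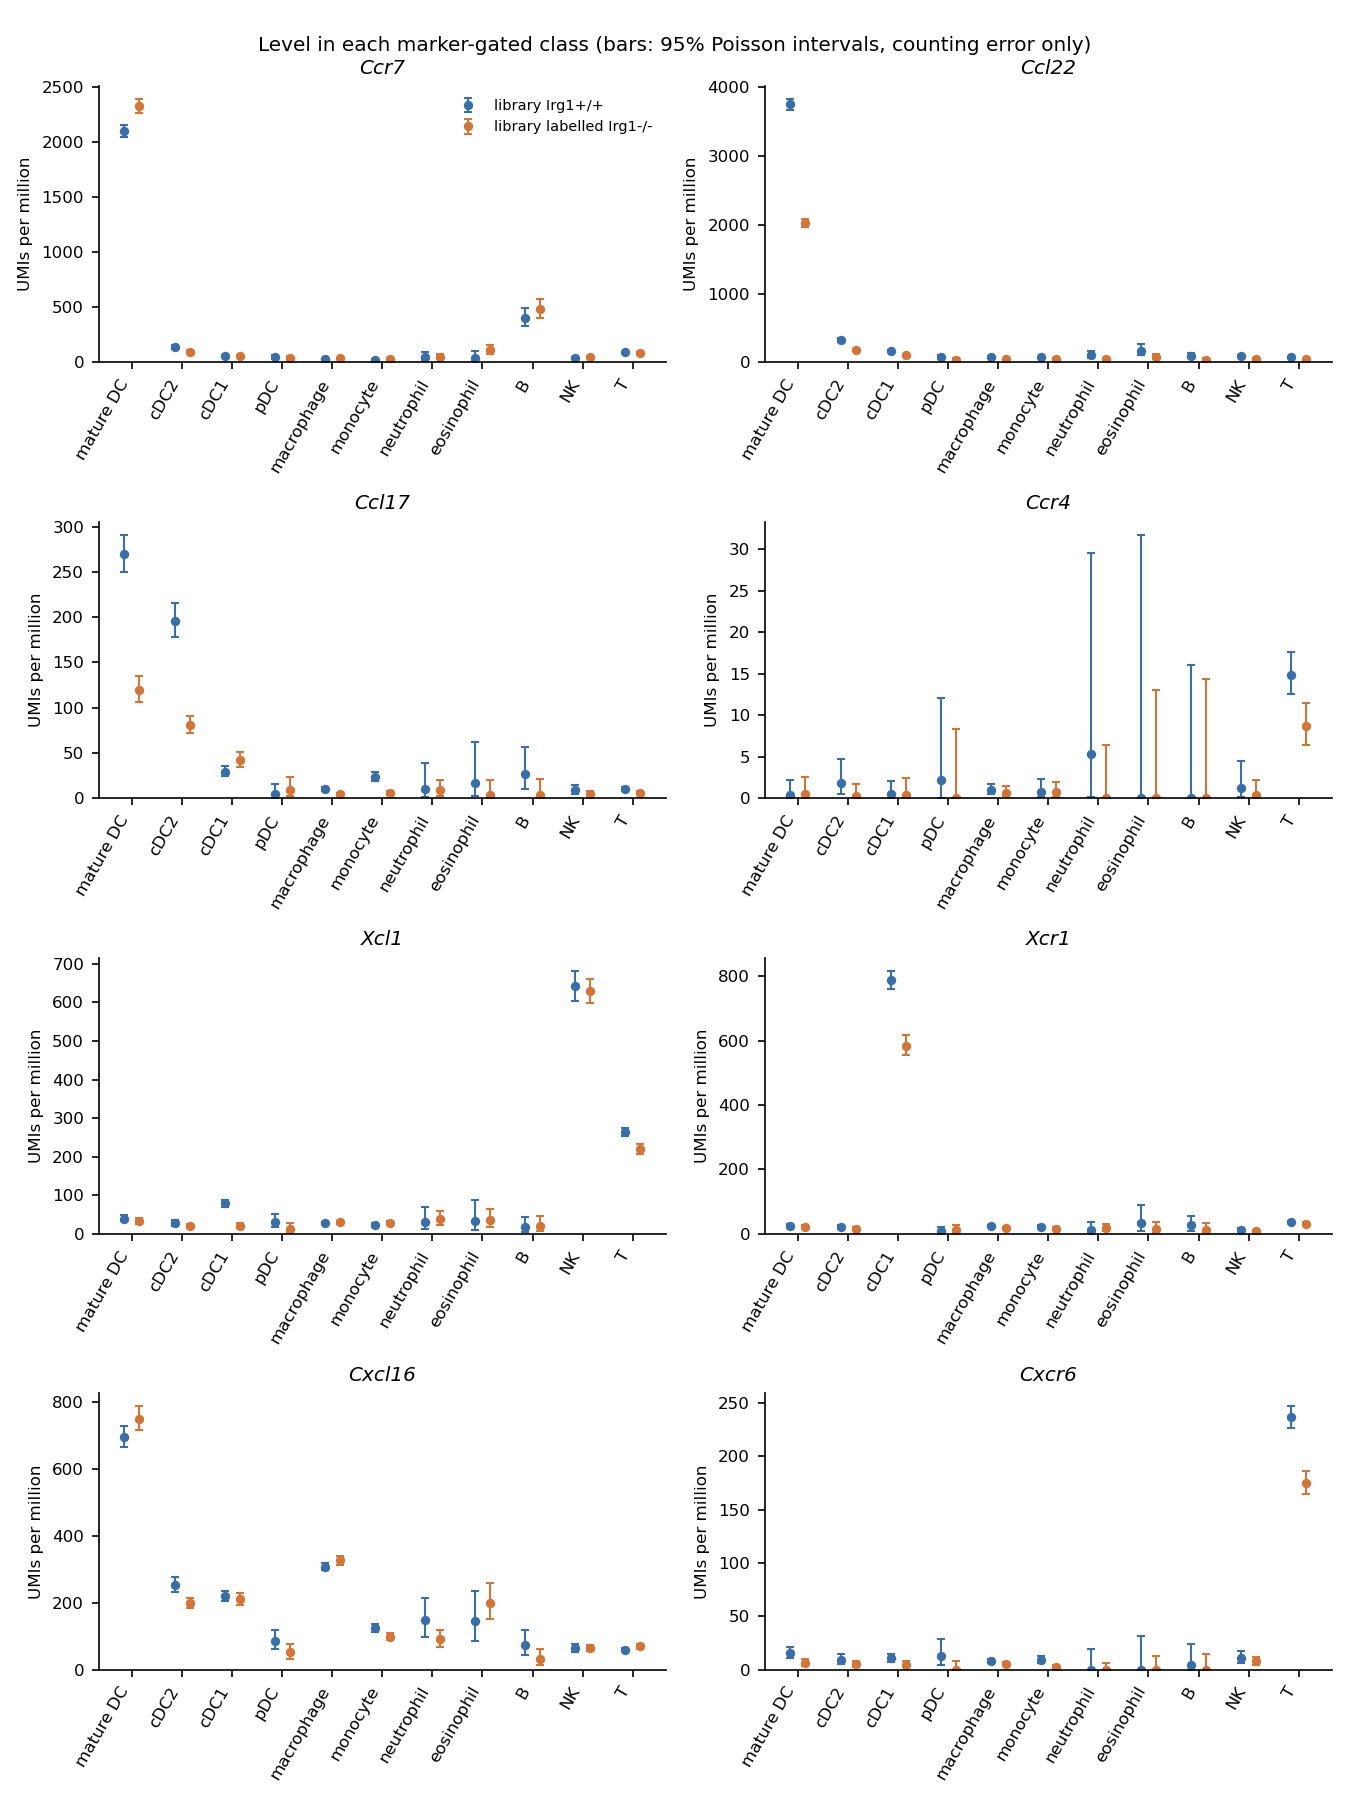
Each panel gives the level of 1 gene (vertical axis, UMIs per 1000000, linear) in 11 marker-gated classes (horizontal axis), with the Irg1+/+ library in blue and the library labelled Irg1-/- in orange, and bars for 95% Poisson intervals. Ccl22 in mature dendritic-like cells stood at 3748 and 2018 CPM and Ccl17 at 269.9 and 120.0 CPM, while Ccr7 and Cxcl16 in the same cells were slightly higher in the library labelled Irg1-/-.

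Ccl22 and Ccl17 were both lower in mature dendritic-like cells labelled Irg1-/-. Ccl22 there was 3748 CPM (3673 to 3824) and 2018 CPM (1959 to 2078), a log2 ratio of -0.89 (-0.94 to -0.84). The class held 67.8% and 64.9% of all Ccl22 UMIs. The share of its cells with a Ccl22 UMI was 82.3% (78.2 to 85.9) and 80.3% (75.6 to 84.5), and after thinning to 2000 UMIs it was 80.3% and 71.8%. NK-like cells gave 27.9% (23.7 to 32.5) and 15.1% (12.6 to 17.8) before thinning and 20.5% and 9.98% after it. Per 10000 UMIs of a cell, the median mature dendritic-like cell had 13.2 Ccl22 UMIs in the Irg1+/+ library and 8.17 in the other, with upper quartiles of 38.3 and 20.2. The difference therefore showed at the median as well as in the upper cells.

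Within the class Ccl22 was held by fewer cells than Ccr7. Of 407 Irg1+/+ cells, 32 held 50% of the Ccl22 UMIs, and of 330 cells labelled Irg1-/- 26 did so. For Ccr7 these numbers were 88 and 76 cells. The highest single cells had 371 and 325 Ccl22 UMIs. After thinning, 257 of 335 Irg1+/+ cells and 201 of 294 cells labelled Irg1-/- had a UMI of both genes. Ccl22 was found in 81.6% and 72.8% of cells with Ccr7.

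**Figure D3:**
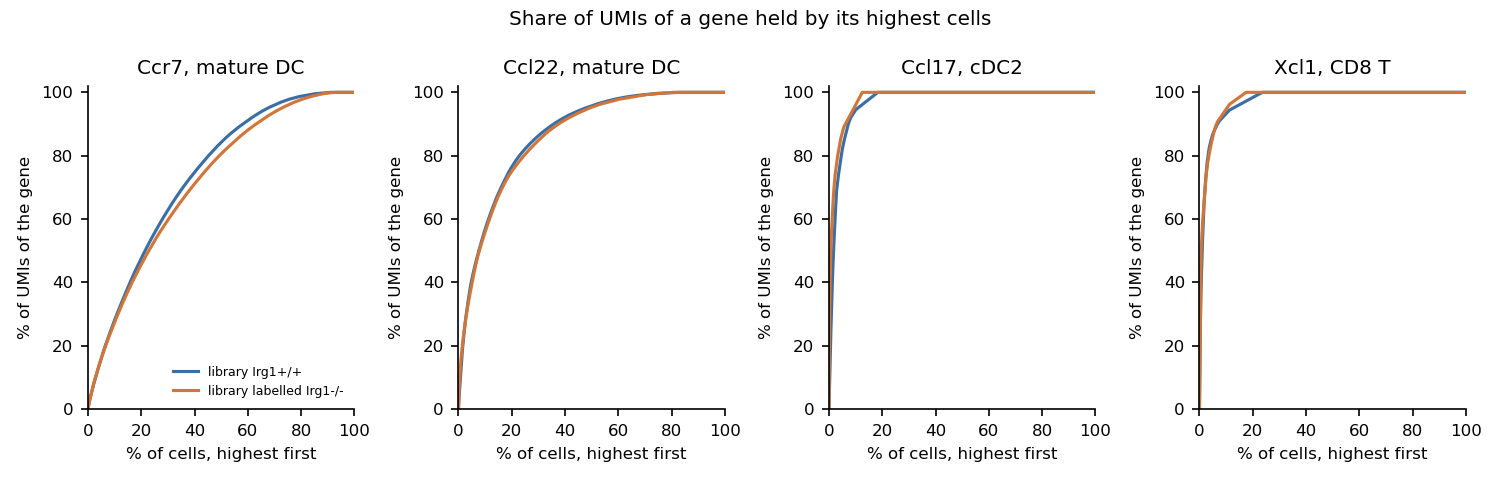
Curves give the cumulative percent of a gene's UMIs (vertical axis) held by the percent of cells with the most UMIs of that gene (horizontal axis), for Ccr7 and Ccl22 in mature dendritic-like cells, Ccl17 in cDC2-like cells and Xcl1 in CD8 T-like cells that were not cycling, with the libraries in blue (Irg1+/+) and orange (labelled Irg1-/-). A steep start means few cells hold most UMIs: 50% of Xcl1 UMIs came from 4 of 348 and 1 of 160 CD8 T-like cells.

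The lower Ccl22 level was found in 11 of the 11 classes with at least 50 cells in both libraries, each with an interval below 0. In NK-like cells Ccl22 was 92.8 and 53.8 CPM, a log2 ratio of -0.79 (-1.13 to -0.44). The NK-like level thus stood lower along with that of the main source. Mature dendritic-like cells had 40.4 and 37.5 times the NK-like level. In cDC2-like cells, with 324 and 181 CPM, it was 3.49 and 3.36 times that level, and the part of free RNA in their ratio of -0.84 was not tested. In cDC1-like cells Ccl22 was 171 and 113 CPM.

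Ccl17 came mainly from mature dendritic-like and cDC2-like cells. In mature dendritic-like cells it was 269.9 CPM (250.02 to 291) and 120.0 CPM (106 to 135), and in cDC2-like cells 196 CPM (178 to 215) and 80.8 CPM (71.5 to 91.0). NK-like cells had 8.78 and 4.61 CPM. The log2 ratios were -1.17 (-1.38 to -0.96) and -1.28 (-1.50 to -1.05), past 2-fold in both classes. A Ccl17 UMI was found in 27.3% (23.0 to 31.9) and 19.1% (15.0 to 23.8) of mature dendritic-like cells and in 18.3% (14.0 to 23.4) and 12.5% (9.53 to 16.0) of cDC2-like cells, at median depths of 6347 and 6779.5 UMIs for the latter, against 3.34% (1.84 to 5.54) and 1.61% (0.836 to 2.80) of NK-like cells. Thinned to 2000 UMIs, the shares were 17.3% and 9.86% of mature dendritic-like cells, 10.1% and 5.41% of cDC2-like cells and 2.27% and 1.03% of NK-like cells.

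Few cells held most of the Ccl17. In mature dendritic-like cells 10 and 6 cells held 50% of the UMIs, and in cDC2-like cells 5 of 278 and 4 of 432 did so. Without the 5 highest cells of each library the ratio was -1.47 in mature dendritic-like and -1.54 in cDC2-like cells. In cDC1-like cells Ccl17 was 29.3 and 41.9 CPM, where 1 cell labelled Irg1-/- had 57 of the 97 UMIs. In thinned mature dendritic-like cells Ccl17 was found in 20.8% and 12.8% of those with Ccl22 and in 3.03% and 2.41% of those without. In thinned cDC2-like cells these shares were 25.4% and 15.2% with Ccl22 and 5.56% and 3.52% without.

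The ratios of both ligands moved when cells that also passed the threshold of another class were left out, as these can be doublets or carry free RNA. Without them (165 and 145 of the mature dendritic-like cells) the ratio in that class was -0.55 for Ccl22 and -0.59 for Ccl17, no longer past 2-fold. That of Ccl17 in cDC2-like cells was -0.88, also no longer past 2-fold. T cell markers were lower in mature dendritic-like cells labelled Irg1-/- as well. All 6 were detected, at a sum of 349 and 195 CPM, with Trac the most abundant at 146 and 83.9 CPM. Monocyte markers were higher there, at 469 and 705 CPM, led by Ly6c2 at 268 and 455 CPM, with 6 of 6 detected. Marker lists of other cells differed there as well, with melanocyte markers at 174 and 60.5 CPM, led by Dct at 86.8 and 27.5 CPM, NK cell markers at 32.4 and 80.3 CPM, led by Klre1 at 7.50 and 16.2 CPM, and neutrophil markers at 23.3 and 82.1 CPM, led by Hdc at 13.02 and 27.5 CPM. Cxcr2 was the 1 marker of these 3 lists at 0, in the Irg1+/+ library. In cDC2-like cells monocyte markers were 1011 and 1661 CPM, led by Ly6c2 at 507 and 1137 CPM. T cell markers there were 308 and 187 CPM, led by Trac at 139.5 and 76.4 CPM. Melanocyte markers were 142 and 41.4 CPM, NK cell markers 45.1 and 80.2 CPM and neutrophil markers 53.9 and 96.2 CPM, with 6 of 6 detected in each list. The part of all these lists in the ratios was not tested.

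The 8 genes were chosen with earlier results of these data known, so the shares of all genes are a background and not a test. In mature dendritic-like cells 7 of the 8 genes had at least 20 UMIs over both libraries. Of these, 2 of 7 were past 2-fold, against 4.55% of the 9420 genes so counted. They were Ccl17 and Cxcr6, the latter at 15.8 and 5.87 CPM, against 9.39 and 2.51 CPM in monocyte-like cells, the measure of free RNA for Cxcr6, where it was also past 2-fold lower (-1.86 (-3.02 to -0.90)). In cDC2-like cells 1 of 7, Ccl17, was past 2-fold, against 3.96% of all genes. In macrophage-like cells it was 1 of 7, again Ccl17, at 9.75 and 4.29 CPM and close to the NK-like level, against 3.74%. In cDC1-like cells 2 of 7 were past 2-fold, Xcl1 and Cxcr6, against 3.85%. Cxcr6 there was 10.6 and 4.32 CPM, against the 9.39 and 2.51 CPM of monocyte-like cells. Xcl1 rested on 1 cell with 181 of 283 Irg1+/+ UMIs. The counts were 0 of 8 in T-like cells, against 3.14%, 0 of 7 in NK-like cells, against 3.80%, 0 of 6 in non-cycling CD8 T-like cells, against 5.01%, and 0 of 7 in regulatory T-like cells, against 5.48%.

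Ccl22 and Ccl17 are neighbors on chromosome 8, on the same strand and 58.8 kb apart. In GENCODE mouse release 21 (GRCm38), Ccl22 (ENSMUSG00000031779) spans chr8:94745590-94751699 and Ccl17 (ENSMUSG00000031780) chr8:94810453-94812036. Since both were lower together, the bases just upstream of each start are shown, from the plus strand of RefSeq's GRCm38.p6 windows, ending before the first exon of GENCODE. The Ccl22 stretch is chr8:94745434-94745589 and the Ccl17 stretch chr8:94810203-94810452. Capitals mark matches to TTCNNNGAA or TTCNNNNGAA, spacings of a palindrome that STAT factors are known to bind, or to the kappa B consensus, searched on both strands.
Ccl22: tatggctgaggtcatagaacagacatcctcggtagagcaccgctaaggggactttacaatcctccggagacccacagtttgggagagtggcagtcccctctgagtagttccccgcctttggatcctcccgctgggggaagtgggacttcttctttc
Ccl17: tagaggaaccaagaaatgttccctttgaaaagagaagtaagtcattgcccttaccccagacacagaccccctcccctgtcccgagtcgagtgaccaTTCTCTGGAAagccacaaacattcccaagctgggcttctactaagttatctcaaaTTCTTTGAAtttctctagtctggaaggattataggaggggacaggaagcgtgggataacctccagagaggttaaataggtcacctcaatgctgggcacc
The Ccl17 stretch held a match to TTCNNNNGAA at chr8:94810299-94810308 and a match to TTCNNNGAA at chr8:94810354-94810362. The Ccl22 stretch, which is 156 bases, held no match to any of the 3. The 94 bases left out of its window of 250, those nearest the RefSeq start, were not searched. The stretches of the genes are therefore not alike in length. Of 32851 windows of 250 bases upstream of RefSeq starts, 7.02% held TTCNNNGAA, 5.85% held TTCNNNNGAA and 3.90% held the kappa B consensus. A match is a run of letters and not a measured binding site.

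Ccr4, the receptor of both ligands, was read mostly in T-like cells, which held 70.2% and 75.4% of its UMIs. It was sparse, with 198 and 65 UMIs in the libraries. CD4 T-like cells had 51.6 CPM (32.7 to 77.4) and 42.7 CPM (23.3 to 71.6), and regulatory T-like cells had 49.6 CPM (37.3 to 64.8) and 31.2 CPM (18.5 to 49.3). The intervals of these subsets overlapped, so their order was not resolved. A Ccr4 UMI was found in 19.9% (14.5 to 26.2) and 13.6% (7.25 to 22.6) of regulatory T-like cells, and in 0.434% (0.0895 to 1.26) and 0.380% (0.0785 to 1.11) of monocyte-like cells, the measure of free RNA for this gene, at median depths of 4578 and 4333.5 and 5220 and 5203 UMIs. CD8 T-like cells that were not cycling had 3 and 0 UMIs, where 0, taken as at most 3 UMIs, allows up to 4.69 CPM.

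Over all T-like cells Ccr4 was 14.9 CPM (12.5 to 17.6) and 8.66 CPM (6.41 to 11.5), a log2 ratio of -0.77 (-1.28 to -0.30). Within regulatory T-like cells the ratio was -0.64 (-1.53 to 0.12) and within CD4 T-like cells -0.25 (-1.34 to 0.75), both with intervals that included 0. A difference within these subsets was not detectable at this depth. T-like cells placed in no named subset had 57 and 15 Ccr4 UMIs, at 16.8 and 9.08 CPM, a ratio of -0.85 (-1.81 to -0.04) whose interval lay below 0. The mixture of subsets also differed, and its part was not tested. Of the 1311 and 732 T-like cells, 196 and 88 were regulatory, 134 and 112 CD4, 348 and 160 non-cycling CD8 and 196 and 158 cycling CD8 T-like cells, and 416 and 193 were in no named subset. A further 21 and 21 were gamma delta T-like cells, fewer than the 50 asked of a class, and their levels are not given. Ccr8, the receptor of Ccl1 and Ccl8 and known from regulatory T cells of tumors, was 131 and 79.7 CPM in regulatory T-like cells. Ccl8 was 965 and 652 CPM in macrophage-like cells, and Ccl1 72.7 and 68.8 CPM in T-like cells. Ccl1 differed in opposite directions between T-like subsets, at 160.0 and 14.1 CPM in non-cycling CD8 T-like cells (-3.43 (-4.65 to -2.56)) and 29.2 and 469 CPM in CD4 T-like cells (3.96 (3.19 to 4.95)), and the difference between subsets was not tested. In the CD4 T-like cells labelled Irg1-/- 1 cell held 142 of the 154 UMIs, and in the Irg1+/+ CD8 T-like cells 5 cells held 83.5%.

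**Figure D4:**
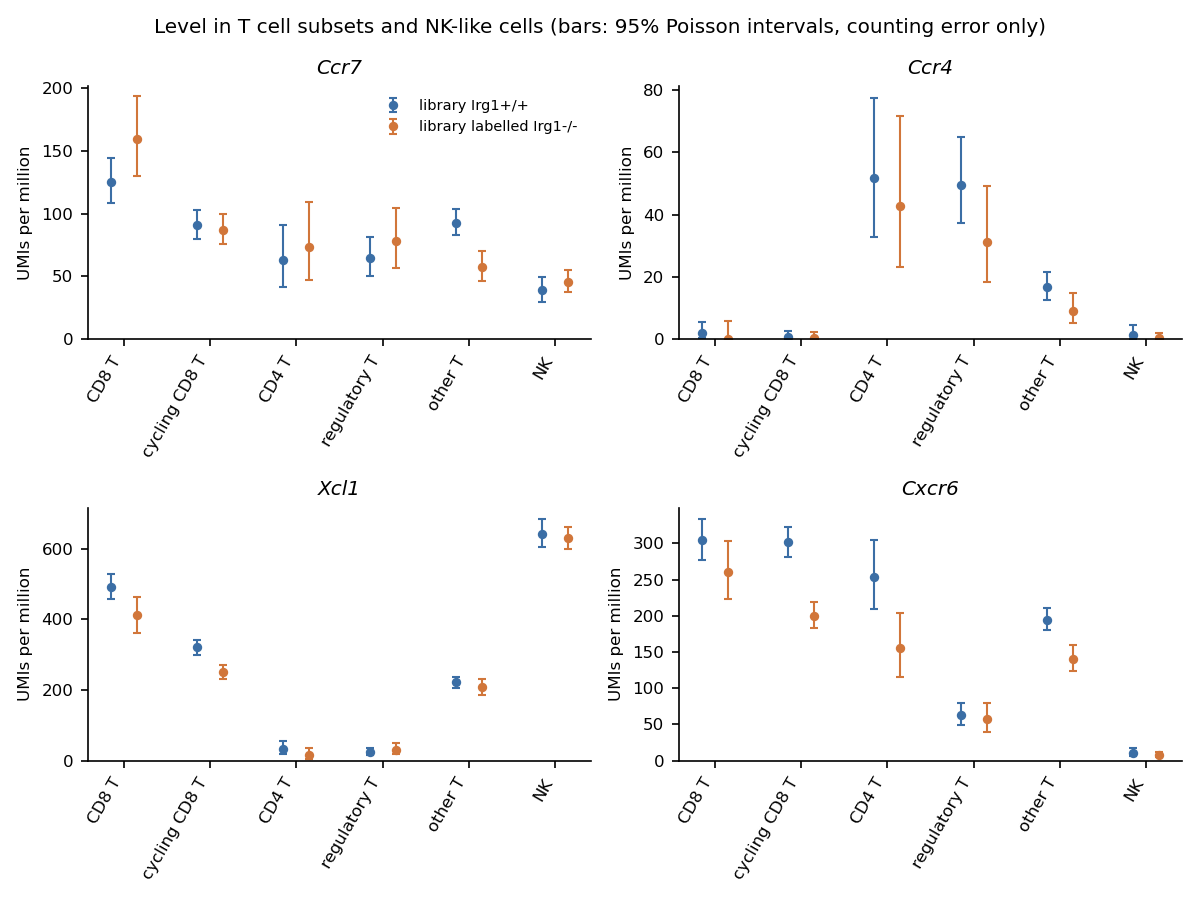
Each panel gives the level of 1 gene (vertical axis, UMIs per 1000000, linear) in 5 subsets of T-like cells and in NK-like cells (horizontal axis), with the Irg1+/+ library in blue and the library labelled Irg1-/- in orange, and bars for 95% Poisson intervals. Ccr4 stood highest in CD4 and regulatory T-like cells, Xcl1 in NK-like and CD8 T-like cells, and Cxcr6 was lowest among T-like subsets in the regulatory one, at 63.4 and 57.2 CPM.

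Xcl1 was highest in NK-like cells, at 642 CPM (603 to 683) and 629 CPM (599 to 660.4). T-like cells followed, at 263 CPM (253 to 274) and 220.1 CPM (208 to 233). Monocyte-like cells, the measure of free RNA for this gene, had 23.2 and 27.4 CPM. The log2 ratio was -0.03 (-0.14 to 0.08) in NK-like cells and -0.26 (-0.36 to -0.16) in T-like cells, the latter 0.010 with clusters in place of gates. An Xcl1 UMI was found in 58.9% (54.1 to 63.7) and 46.0% (42.3 to 49.6) of NK-like cells, against 11.1% (8.88 to 13.7) and 10.6% (8.58 to 13.01) of monocyte-like cells. After thinning these shares were 48.3% and 41.1% and 3.69% and 3.24%.

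NK-like cells of the libraries had sums that were alike and shares that were not. In the Irg1+/+ library 46 of 419 NK-like cells held 50% of the Xcl1 UMIs and the highest had 36. In the library labelled Irg1-/- 41 of 744 did so and the highest had 98. The mean over cells of each cell's own CPM, which does not weight deep cells, gave a log2 ratio of -0.35. NK-like cells were 6.67% and 12.8% of kept cells and held 21.2% and 42.6% of all Xcl1 UMIs, while T-like cells were 20.9% and 12.6% of cells and held 50.9% and 32.4%. A count of sorted cells does not give the number of cells in the tumor.

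Among T-like cells Xcl1 was highest in the CD8 subsets. Non-cycling CD8 T-like cells had 492 CPM (458 to 528) and 411 CPM (363 to 464), and cycling CD8 T-like cells 321 CPM (300.1 to 342) and 249.96 CPM (230.4 to 271). CD4 T-like cells had 33.6 and 15.2 CPM and regulatory T-like cells 25.7 and 31.2 CPM, near the level of monocyte-like cells. Of the non-cycling CD8 T-like cells, 266 of 348 and 132 of 160 were without a UMI. The highest cell alone had 188 of 763 UMIs in the Irg1+/+ library and 132 of 263 in the library labelled Irg1-/-. Without that 1 cell the levels were 373 and 208 CPM. T-like cells placed in no named subset had 222 and 209 CPM. The place of non-cycling CD8 T-like cells above these thus rested on 1 cell in the library labelled Irg1-/-. In cDC1-like cells, where Xcl1 was past 2-fold lower, 1 cell had 181 of the 283 Irg1+/+ UMIs. Without the highest cell of each library the levels there were 28.6 and 19.6 CPM.

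Xcr1, the receptor of Xcl1, was highest in cDC1-like cells, at 787 CPM (759 to 817) and 585 CPM (554 to 617), a log2 ratio of -0.43 (-0.52 to -0.34). NK-like cells had 10.7 and 8.84 CPM. An Xcr1 UMI was found in 65.5% (60.3 to 70.4) and 61.5% (55.2 to 67.5) of cDC1-like cells, at median depths of 8614 and 7838 UMIs, against 3.82% (2.20 to 6.13) and 2.96% (1.86 to 4.44) of NK-like cells. Thinned to 2000 UMIs, the shares were 57.5% and 42.0% and 1.14% and 1.72%, with 79 and 26 shallower cDC1-like cells left out. The median cDC1-like cell had 4.57 Xcr1 UMIs per 10000 in the Irg1+/+ library and 2.27 in the other.

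The cDC1 markers of the gate summed to 4084 and 3789.9 CPM in cDC1-like cells, led by Naaa, a lysosomal amidase, at 2122 and 1972 CPM. Monocyte markers were higher in the library labelled Irg1-/- in this class, at 628 and 1259 CPM, led by Ly6c2 at 361 and 955 CPM, with 6 of 6 detected. Their part in the Xcr1 difference was not tested. When clusters took the place of gates the Xcr1 ratio was -0.16. Xcr1 in mature dendritic-like cells was 23.3 and 21.2 CPM, and in T-like cells 37.2 and 31.6 CPM. Xcr1 and Cxcr6 lie 40.6 kb apart on chromosome 9, at chr9:123852315-123862029 on the minus strand and chr9:123806475-123811760 on the plus strand, and had their highest levels in different classes.

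Cxcl16 was read in many myeloid classes. Its level was highest in mature dendritic-like cells, at 695 CPM (663 to 728) and 749 CPM (714 to 786), followed by macrophage-like cells, at 307 CPM (296 to 317) and 326 CPM (313 to 339). The cDC2-like cells had 253 and 199 CPM and the cDC1-like cells 219 and 211 CPM, with overlapping intervals in each library. NK-like cells had 64.0 and 63.5 CPM. A Cxcl16 UMI was found in 84.3% (80.4 to 87.7) and 85.5% (81.2 to 89.1) of mature dendritic-like cells and in 73.6% (70.6 to 76.4) and 73.4% (70.2 to 76.4) of macrophage-like cells, at median depths of 8934 and 8587 UMIs for the latter, against 17.2% (13.7 to 21.1) and 14.1% (11.7 to 16.8) of NK-like cells. Thinned to 2000 UMIs these shares were 70.4% and 73.8%, 42.5% and 45.4%, and 11.4% and 9.64%.

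By number of UMIs macrophage-like cells were the larger source of Cxcl16, with 35.8% and 33.2% of them against 19.6% and 21.3% in mature dendritic-like cells. The log2 ratio was 0.11 (0.01 to 0.21) in mature dendritic-like and 0.09 (0.01 to 0.16) in macrophage-like cells, and -0.35 (-0.51 to -0.18) in cDC2-like cells. As a mean over cells of each cell's own CPM, the ratio in macrophage-like cells was -0.014. The proteases Adam10 and Adam17 are known to shed Cxcl16 from the cell surface. In macrophage-like cells Adam10 was 189 and 184 CPM and Adam17 188 and 180.0 CPM. In mature dendritic-like cells Adam10 was 127 and 95.2 CPM and Adam17 65.5 and 76.3 CPM.

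Cxcr6 was held mostly by T-like cells (84.9% and 83.4% of its UMIs), with 237 CPM (227 to 247) and 175 CPM (164 to 186), a log2 ratio of -0.44 (-0.55 to -0.33). A Cxcr6 UMI was found in 44.0% (41.3 to 46.7) and 40.2% (36.6 to 43.8) of T-like cells, at median depths of 4296 and 3974 UMIs, against 3.32% (2.12 to 4.95) and 1.39% (0.698 to 2.48) of monocyte-like cells. After thinning these shares were 28.3% and 22.0% and 1.23% and 0.270%. NK-like cells had 10.7 and 7.69 CPM. The level was lower in the library labelled Irg1-/- in 5 of 5 T-like subsets with at least 50 cells in both libraries, with an interval below 0 in 3. Cycling CD8 T-like cells had 301 CPM (281 to 322) and 200.1 CPM (183 to 219), a log2 ratio of -0.59 (-0.76 to -0.43). Non-cycling CD8 T-like cells had 304 and 261 CPM, a ratio of -0.22 (-0.49 to 0.03). CD4 T-like cells had 253 and 155 CPM, a ratio of -0.70 (-1.21 to -0.22), and regulatory T-like cells 63.4 and 57.2 CPM, a ratio of -0.14 (-0.79 to 0.47).

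**Figure D5:**
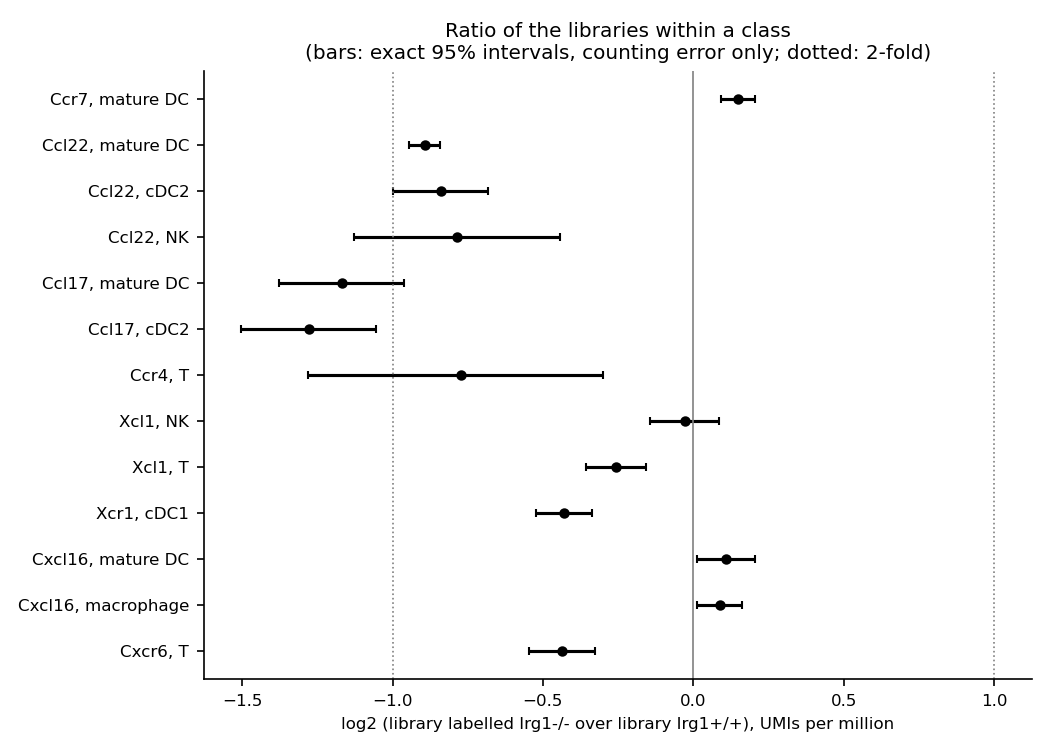
Points give the log2 ratio of the library labelled Irg1-/- over the Irg1+/+ library (horizontal axis) for a gene in a class (vertical axis), with exact 95% intervals for counting error and dotted lines at 2-fold. Ccl22 (-0.89) and Ccl17 (-1.17) lie left of 0 in mature dendritic-like cells, as do Cxcr6 and Ccr4 in T-like and Xcr1 in cDC1-like cells, while Ccr7 and Cxcl16 in mature dendritic-like cells lie just right of it.

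The genes with the pattern over 15 classes most like each of the 8 were ranked by the smaller of the correlations of the 2 libraries, among 11618 genes with at least 100 UMIs and without the markers. These are descriptions over classes that share libraries and free RNA. Ccl22 was most like Mmp25, Ehf and Lactb (smaller Pearson r 0.95, 0.92 and 0.91), and Ccl17 most like Ehf, Avpi1 and Ccl22 (0.83, 0.82 and 0.82). Ccr7 was most like Ccdc6, Poglut1 and Tmem123 (0.85, 0.82 and 0.81). Cxcl16 was most like Anxa4, Nostrin and Lima1 (0.89, 0.86 and 0.86). Xcl1 was most like Gzmc, Prf1 and Klrc1 (0.91, 0.90 and 0.88), of which Gzmc and Prf1 encode proteins of cytotoxic granules. Cxcr6 was most like Arl14ep, Spock2 and Pdcd1 (0.94, 0.89 and 0.89), the last encoding the receptor PD-1. Ccr4 was most like Ncmap, Ermn and Izumo1r (0.90, 0.87 and 0.84), and Xcr1 most like Gm3336, Gcsam and Gramd2 (0.80, 0.76 and 0.75).

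Other genes of these systems were read from lists, which were also chosen with earlier results of these data known. Of 20 maturation genes in mature dendritic-like cells, 1 was past 2-fold, Il12b, a subunit of interleukin-12, at 519 and 1067 CPM (log2 ratio 1.04, 0.94 to 1.14). The share past 2-fold over all genes was 4.55%, and the median ratio was 0.15 against -0.05 over all genes counted. Icosl (0.52) and Pdcd1lg2 (0.51), ligands of costimulatory and inhibitory receptors of T cells, were the next highest. Tnfrsf9 (-0.19), Stat4 (-0.19) and Cd86 (-0.15) were the lowest.

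Of 31 other chemokine ligands 20 were counted in mature dendritic-like cells. Of these, 4 were past 2-fold higher and 3 past 2-fold lower in the library labelled Irg1-/-, against 4.55% of all genes in either direction, and the median was -0.46 against -0.05. Cxcl9 and Cxcl10, ligands of Cxcr3 on activated T cells, stood at 294 and 918 CPM (1.64, 1.52 to 1.77) and at 112 and 291 CPM (1.37, 1.17 to 1.58). The other two were Cxcl12 and Cxcl14, with 0 and 42 UMIs and 1 and 83 UMIs, and were named after their values were seen. In the library labelled Irg1-/- 1 cell held 39 of the 42 and 1 cell 79 of the 83 UMIs. Ccl11, also named after its values were seen and below 20 UMIs, had 0 and 16 UMIs, of which 1 cell held 15. Ccl5, which attracts T cells and monocytes, was 5138 and 5605 CPM in mature dendritic-like cells and 4346 and 6159 CPM in NK-like cells. Ccl2 (-0.94) and Cxcl1 (-0.84), which attract monocytes and neutrophils, were lower. Cxcl3 (-1.39), of whose 85 Irg1+/+ UMIs 1 cell held 54, was past 2-fold lower, as were Ccl24, named after its values were seen, at 17.8 and 2.26 CPM, and Ccl1, at 5.92 and 2.26 CPM. Ccl1 rested on 15 and 5 UMIs, and the interval of its ratio (-1.30 (-3.21 to 0.14)) included 0. Ccl2 was 243 and 127 CPM in mature dendritic-like cells and 2121 and 1375 CPM in macrophage-like cells. Cxcl1 was 82.5 and 46.0 CPM in the former class and 283 and 104 CPM in the latter. The macrophage marker C1qb was 347 and 362 CPM in the former and 3099 and 3354 CPM in the latter. The part of free RNA in the ratios and the median of this list was not tested.

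In macrophage-like cells 21 of these ligands were counted, with 1 past 2-fold higher, 4 past 2-fold lower (against 3.74% of all genes in either direction) and a median of -0.39, against -0.04 over all genes. Among those with at least 100 UMIs, Ppbp (-3.19), Cxcl3 (-1.63) and Cxcl1 (-1.44) were the lowest, and Cxcl9 (0.43), Ccl5 (0.36) and Cxcl10 (0.06) the highest. The interval of Cxcl10 (-0.02 to 0.13) included 0.

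Of 19 other chemokine receptors 9 were counted in mature dendritic-like cells, with 0 past 2-fold, against 4.55% of all genes, and a median of 0.36 against -0.05. Among those with at least 100 UMIs, Ccr2 (0.64), Cxcr5 (0.55) and Ccr1 (0.37) were the highest and Cxcr4 (0.07) and Ccrl2 (0.36) were among the lowest. The intervals of Ccr1 (-0.05 to 0.78) and Cxcr4 (-0.12 to 0.26) included 0. Ackr2 had 0 UMIs in the Irg1+/+ library and 3 in the other. In T-like cells 12 receptors were counted, with 1 past 2-fold lower, against 3.14% of all genes, and a median of -0.23, against -0.04 over all genes. The 1 was Ccr9, a gut-homing receptor named after its values were seen, at 8.14 and 2.65 CPM. Ccr9 is also a marker of the plasmacytoid dendritic gate, and cDC1-like cells had 10.1 and 8.21 CPM of it. The part of free RNA in its ratio was not tested. Ccr8 (-0.73), Cxcr3 (-0.43) and Ccr3 (-0.41) were the lowest with at least 100 UMIs, and Cxcr4 (0.28), Ccr2 (-0.02) and Cx3cr1 (-0.16) the highest. The intervals of Ccr3 (-0.89 to 0.04), Ccr2 (-0.09 to 0.06) and Cx3cr1 (-0.36 to 0.05) included 0. Ccr3, at 13.7 and 10.3 CPM in T-like cells, is also a marker of the eosinophil gate.

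Of 14 genes of T cell retention and activation 1 was past 2-fold in T-like cells, against 3.14% of all genes. This was Itgae, the integrin chain that binds E-cadherin, at 52.6 and 22.1 CPM (-1.25, -1.55 to -0.96). Regulatory T-like cells held 242 of its 491 and 55 of its 125 UMIs there, at 222 and 95.3 CPM. Non-cycling CD8 T-like cells had 19.4 and 12.5 CPM of Itgae. Cd69, a membrane protein that retains T cells in tissue, was 263 and 175 CPM (-0.59). Tigit, an inhibitory receptor, had a ratio of -0.37 in T-like cells and 0.14 (-0.29 to 0.56) in non-cycling CD8 T-like cells. Gzmb (0.37), Prf1 (0.35) and Havcr2 (0.23) were the highest in T-like cells. The mixture of T-like subsets differed between the libraries, and its part in these ratios was not tested. The median of the list was -0.10 in T-like and -0.12 in non-cycling CD8 T-like cells, against -0.04 and -0.01 over all genes. In the latter cells 0 of 14 were past 2-fold, against 5.01% of all genes. Rgs1 (-0.46), Ifng (-0.45) and Cd69 (-0.34) were the lowest there, with intervals below 0. Pdcd1 (0.22, -0.02 to 0.46), Havcr2 (0.20, -0.10 to 0.49) and Prf1 (0.17, -0.09 to 0.42) were the highest, and their intervals included 0.

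Of 6 genes of T cell circulation, known to accompany Ccr7 in naive and memory T cells, 0 were past 2-fold in T-like cells, against 3.14% of all genes, and the median was 0.09 against -0.04. Tcf7, a transcription factor, was 119 and 94.0 CPM (-0.34). The ratios of 4 others were those of Lef1 (0.24), S1pr1 (0.14), Klf2 (0.04) and Il7r (-0.13). The intervals of Lef1 (-0.003 to 0.48), S1pr1 (-0.04 to 0.32) and Klf2 (-0.09 to 0.17) included 0. Of 10 regulatory T cell genes in regulatory T-like cells 0 were past 2-fold, against 5.48% of all genes, with a median of -0.30 against -0.02 over all genes. Foxp3, the lineage factor of these cells and part of their gate, was 723 and 485 CPM (-0.58). Areg (-0.53) and Icos (-0.40) were the next lowest, and Il10 (0.28), Ikzf2 (-0.20) and Tnfrsf18 (-0.21) the highest. The intervals of Il10 (-0.08 to 0.64) and Tnfrsf18 (-0.45 to 0.02) included 0.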

How the data were processed

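The authors captured CD45+ cells with BD Rhapsody, trimmed reads with fastp, listed barcodes with UMI-tools and aligned to Ensembl 100 (GRCm38) with STAR. The submitters' processing notes also name CASAVA 1.8 and Seurat. The deposited files hold UMI counts that are not normalized, for cells not yet filtered on mitochondrial genes. Cells were used here if more than 200 genes were detected and mitochondrial UMIs stayed below 10%. Mitochondrial genes were then dropped, and rows with 1 symbol were added up.

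A cell's class was the one whose 6 markers (those with fewer than 50 UMIs unused) had the highest mean z score, if this was at least 0.5, led the next class by 0.1 and 2 markers were detected. T-like cells were split by Cd8a, Cd8b1, Cd4, Foxp3, cycling genes and gamma delta T cell markers. Thresholds were set on the markers alone after the files were read. Doublets were kept and no caller was used. UMIs were summed per class and library, with 0.5 UMIs added for ratios. A gene entered the count past 2-fold if it had 20 UMIs or more in the class. For shares, cells were also thinned to 2000 UMIs. Alternatives were thinning, a limit of 5% mitochondrial UMIs, a stricter gate, cells of a second class left out, clusters, means over cells, TMM or DESeq2 factors and other UMI minimums.

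The members and lists were chosen with earlier results of these data known. Genes named were the 8, Acod1, their listed partners, markers, the 3 most alike, and per list the 3 highest and lowest with at least 100 UMIs in the class, except 2 that are not reported here. The scripts were tested on simulated data. Python 3.11.15, scipy 1.17.1, scanpy 1.11.5, edgeR 4.0.16 and DESeq2 1.42.0 (the last 2 for scaling factors) were used.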

Additional observations from a re-analysis of the deposited data

Results flagged for a closer look

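Ccr7, Cxcl16 and Ccl17 had ratios of opposite direction in 2 classes in which they stood at least 2 times above the NK-like level, each with an interval that did not include 0. The difference between classes was not tested. The log2 ratio of Ccr7 was 0.15 in mature dendritic-like and -0.50 in cDC2-like cells. That of Cxcl16 was 0.11 in mature dendritic-like, 0.09 in macrophage-like and -0.35 in cDC2-like cells. That of Ccl17 was 0.52 in cDC1-like, -1.28 in cDC2-like and -1.17 in mature dendritic-like cells. In cDC1-like cells labelled Irg1-/- 1 cell had 57 of the 97 Ccl17 UMIs. Without the highest cell of each library the Ccl17 level there was 23.8 CPM in the Irg1+/+ library and 17.5 CPM in the library labelled Irg1-/-.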

How the results depend on the processing

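No paired analysis was possible because each genotype has 1 library, and for the same reason no library could be left out. The ratios of Ccr7, Ccl22, Ccl17 and Cxcl16 in mature dendritic-like cells, Ccl17 in cDC2-like cells, Ccr4 and Cxcr6 in T-like cells and Xcr1 in cDC1-like cells kept their direction under each alternative run. Ratios between the libraries in classes and subsets other than those named here were not recomputed. Xcl1 in T-like cells turned to 0.010 with clusters in place of gates and Cxcl16 in macrophage-like cells to -0.014 as the mean of the CPM of each cell. The cause was not tested. That mean also gave 0.22 for Ccr7 and -0.82 for Ccl22 in mature dendritic-like cells, -0.35 for Xcl1 in NK-like cells and -0.55 for Cxcr6 in T-like cells. Thinning to 2000 UMIs gave -0.82 for Ccl22 and 0.29 for Cxcl16 in mature dendritic-like cells, -0.26 for Xcl1 in NK-like cells, -0.13 for Xcl1 and -0.63 for Cxcr6 in T-like cells and -0.53 for Xcr1 in cDC1-like cells. Without cells past the threshold of a second class, Ccl22 was -0.55 and Ccl17 -0.59 in mature dendritic-like cells, Ccl17 was -0.88 in cDC2-like cells and Xcl1 0.12 in NK-like cells. Clusters gave -0.16 for Xcr1 in cDC1-like cells and no cDC2-like class. Without the 5 highest cells of each library, added after seeing the data, Ccl22 was -0.97 and Ccl17 -1.47 in mature dendritic-like cells, Ccl17 -1.54 in cDC2-like cells and Xcl1 -0.16 in NK-like cells. A limit of 5% mitochondrial UMIs, a stricter gate and TMM or DESeq2 factors moved none of these ratios out of its interval. Counts of genes past 2-fold follow in the order mature dendritic-like, T-like, cDC1-like, cDC2-like, NK-like and macrophage-like cells. They were 3612, 2767, 2453, 2638, 2583 and 3885 among genes with at least 1 UMI. Among genes with at least 100 UMIs they were 57, 67, 81, 80, 51 and 139. The numbers of genes counted at these minimums are not given, so these are not shares. With 0.5 UMIs added, a gene with 1 UMI in all can be past 2-fold. At the minimum of 20 UMIs the shares were 4.55%, 3.14%, 3.85%, 3.96%, 3.80% and 3.74%. Depth limits the sparse genes: Ccr4 rests on 198 and 65 UMIs.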
